A study of Mus musculus with 12 samples.

Results

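Lateral habenula transcripts of mice that stayed sociable after social defeat (resilient) were set against those of mice that were never defeated (non-defeated). The comparison takes 8 of the 12 libraries of the series, 4 resilient and 4 non-defeated, placed in their groups by the stress label of each sample, and all 17416 genes of the table, of which 17111 had enough reads to be tested. Every group, including 4 libraries from defeated mice that came to avoid others (susceptible), came from C57BL/6 mice aged 9 weeks for which the labels give no transgene, and the susceptible libraries serve here as a further comparison for the resilient ones. Each library was made from 100 pg of RNA out of tissue punched from a brain slice of 500 µm. The deposited sheet of a social avoidance test lists 1 mouse ID and 1 interaction ratio for each library, while the labels do not say whether tissue of several animals was combined. A punch holds a mixture of cells, so fewer cells of a type cannot be told apart from less RNA per cell. The interaction ratio was 1.18, 1.08, 1.20 and 2.24 in the resilient and 1.26, 1.84, 1.12 and 1.57 in the non-defeated mice, so the ranges overlapped.

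The lateral habenula is an epithalamic nucleus whose glutamatergic neurons respond to aversive events and restrain midbrain dopamine and serotonin neurons, in large part through inhibitory relay neurons. Its firing demands much energy. Mitochondria make ATP with 5 respiratory complexes, most of whose subunits are encoded in the nucleus, while a few core subunits, the ribosomal RNAs and the transfer RNAs of the organelle are encoded in mitochondrial DNA. Both strands of that small circular molecule are transcribed as long precursors, which are cut into single RNAs. A change in mitochondrial DNA copies, in its transcription or in RNA stability can each alter these transcripts, and a table of reads does not separate them.

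Library totals ran from 33302292 to 45403848 reads in the resilient and from 39210614 to 47737054 reads in the non-defeated group. The 3 libraries with the lowest mean correlation with the others were non-defeated replicate 4 (0.932), resilient replicate 4 (0.933) and non-defeated replicate 3 (0.935). Results that rest on them are given with and without all 3. The fit without them compares resilient replicates 1 to 3 with non-defeated replicates 1 and 2 only. The sample titles hold a letter whose meaning is not stated: it is N in every resilient and H in every non-defeated library, while susceptible replicates 1 and 2 have H and replicates 3 and 4 have N. The difference between resilient and non-defeated libraries and the difference between the letters cannot be told apart without the susceptible libraries. A fit with the letter as a term takes the letter's effect only from the susceptible libraries, 2 with each letter. The interaction ratio was 0.69 and 0.63 in those with H and 0.13 and 0.55 in those with N. Letter and degree of avoidance cannot be told apart there. Lateral habenula markers were present at a summed 1868 to 2870.2 CPM (counts scaled to a total of 1000000 reads) in resilient and 2161 to 2577 CPM in non-defeated libraries, and all 12 had reads in these libraries. Markers of the adjoining medial habenula summed to 801 to 1306 CPM in resilient and 994 to 1539 CPM in non-defeated libraries, so the punches also held neighbouring tissue.

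Across all genes, differences were tested with limma-trend on log2(CPM + 1) after TMM scaling (trimmed mean of M values). A fold change on this scale understates that of genes with few reads. Of 17111 genes 1 passed a Benjamini-Hochberg adjusted p of 0.05, which is 0.00584%, and it was lower in resilient mice. Without adjustment, 731 genes (4.27%) had a p under 0.05 and were higher in resilient mice, and 491 (2.87%) were lower. For 338 genes (1.98%) every resilient value lay above every non-defeated one, and for 288 (1.68%) below. Log2 fold changes were positive for 52.8% and negative for 47.2% of genes, with a median of 0.02. Other tools differed in their counts: DESeq2 on recovered reads called 43 genes higher (0.262%) and 48 lower (0.293%) of the 16383 to which it gave an adjusted p, and voom with quality weights, also on reads, called 1 higher (0.00584%) and 10 lower (0.0584%). At the same unadjusted p, 5.7% of genes were higher and 5.3% lower without resilient replicate 4, 4.33% and 2.97% without non-defeated replicate 3, and 3.14% and 2.45% without non-defeated replicate 4. The 11 genes called by voom were 7 mitochondrial RNAs, Ergic1, Mt1 and Rps2, all lower, and E2f8, higher in resilient mice.

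The clearest difference lay in RNAs encoded by mitochondrial DNA. They took 4.04%, 4.55%, 5.13% and 4.46% of reads in the resilient libraries and 9.35%, 10.2%, 6.73% and 10.6% in the non-defeated libraries. No resilient library reached the lowest non-defeated one. In susceptible libraries the share was 8.37% and 8.01% where the title has H and 10.2% and 12.6% where it has N, so the libraries that share the letter N with the resilient ones were the highest of the susceptible group.

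**Figure D1:**
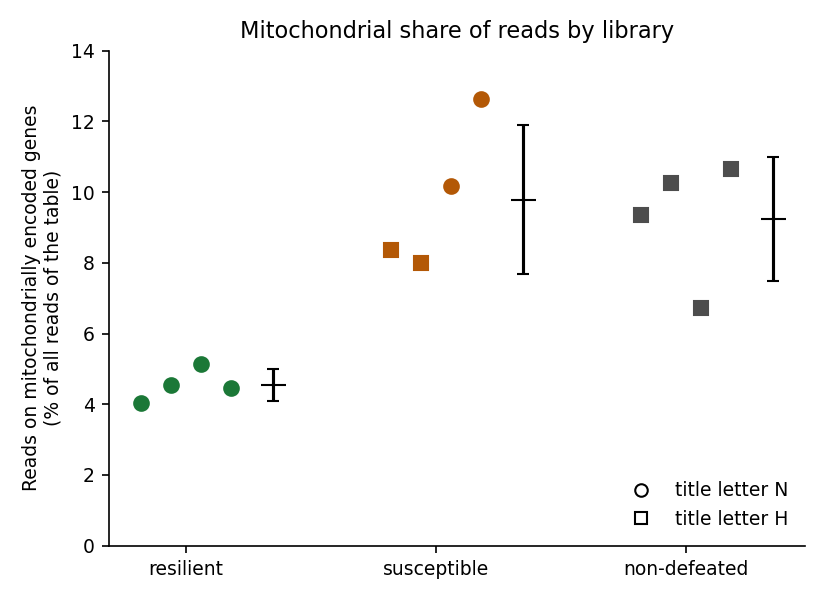
Share of reads on mitochondrially encoded genes in each library, in % of all reads of the table, for resilient, susceptible and non-defeated mice (4 libraries each). Circles and squares mark the letter N or H of the sample title, and bars give the mean ± SD. The resilient libraries sit between 4.04% and 5.13%, below all 8 others.

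The 12S ribosomal RNA gene mt-Rnr1, the RNA core of the small subunit of the mitochondrial ribosome, was the gene that passed. It stood at 947, 1225, 1353 and 1077 CPM in resilient libraries and 2531, 2909.9, 2136 and 3366 CPM in non-defeated ones. All 4 resilient values lay below all 4 non-defeated values. It fell by 1.24 ± 0.16 on the log2 scale (SE, n = 4 each; limma-trend, adjusted p = 0.0276). In susceptible libraries the level was 2242, 2559, 2686 and 2935 CPM, and against these mt-Rnr1 was lower too, with a log2 fold change of -1.18 ± 0.16 (limma-trend, adjusted p = 0.0475). The call against non-defeated mice ended with the title letter as a term (log2 fold change -1.47, adjusted p = 0.432) and without the 3 libraries named above (-1.22, adjusted p = 0.108), with a like fold change each time. It also ended when resilient replicate 1 or 2, non-defeated replicate 1, 2 or 4, or susceptible replicate 2 or 3 was left out, with adjusted p between 0.0635 and 0.185. The median of the 2 mitochondrial ribosomal RNA genes was -1.19. The 16S ribosomal RNA gene mt-Rnr2, of the large subunit, stood at 5431, 5682, 5716 and 4623 CPM in resilient and 11575, 12728, 8756 and 15008 CPM in non-defeated libraries. Here too the groups did not overlap, and its log2 fold change of -1.14 ± 0.17 missed the threshold (limma-trend, adjusted p = 0.0634).

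All 13 mitochondrial messenger RNAs had negative fold changes, all 13 had an unadjusted p under 0.05, and for all 13 the groups did not overlap. Their median log2 fold change was -0.96, beside 0.02 over all genes, and it was -0.996 without the 3 libraries and -1.50 with the title letter as a term. None passed by limma-trend, with adjusted p from 0.212 to 0.375, while DESeq2 called 13 of them and voom 5. The 7 complex I genes, subunits of the NADH dehydrogenase through which electrons enter the chain, had a median of -0.96. Lowest among them, mt-Nd3 stood at 38.4, 81.5, 86.6 and 164 CPM in resilient and 309, 337, 210.2 and 476 CPM in non-defeated libraries (log2 fold change -1.95 ± 0.38). Its resilient values spread over a wide range, with replicate 1 lowest and replicate 4 nearest to the non-defeated libraries. For mt-Cytb, the complex III gene of cytochrome b, the log2 fold change was -0.83 ± 0.20.

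Cytochrome c oxidase, complex IV, passes electrons to oxygen, and its 3 mitochondrial genes had a median of -1.35. The catalytic subunit gene mt-Co1 stood at 8453, 7336, 8796 and 8139 CPM in resilient and 14197, 15687, 9882 and 16643 CPM in non-defeated libraries. That was the smallest difference of the 15 genes (-0.76 ± 0.18), with no overlap. The copper-binding subunit gene mt-Co2 differed more, at 1394, 2526, 3001 and 3309 CPM in resilient and 7486, 8290.2, 4799 and 8359 CPM in non-defeated libraries (-1.54 ± 0.29). The third gene, mt-Co3, had a log2 fold change of -1.35 ± 0.24. In complex V, the ATP synthase, mt-Atp6 of the proton channel stood at 6402, 7409, 8498 and 4876 CPM in resilient and 14021, 15523, 10312 and 14142 CPM in non-defeated libraries (-1.003 ± 0.19). Its reading frame overlaps that of mt-Atp8 (-0.94 ± 0.20), so reads in the overlap belong to both.

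Differences did not follow the order of the genes along the molecule. The RNA of mt-Nd6 is made from the other strand than the remaining messenger RNAs, and its log2 fold change of -0.94 ± 0.19 lay close to the median. Whether reads were counted by strand is not given in the sources used here, so reads from the opposite strand may be among those of mt-Nd6. Within the mitochondrial reads alone, mt-Co1 took a larger part in resilient libraries, 18.3% ± 2.02, than in non-defeated ones, 15.3% ± 0.312 (SD, n = 4 each), and mt-Rnr1 a smaller part, 2.56% ± 0.207 against 2.99% ± 0.261. For these 2 of the 15 genes the parts did not overlap between groups, and for the other 13 they did.

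**Figure D2:**
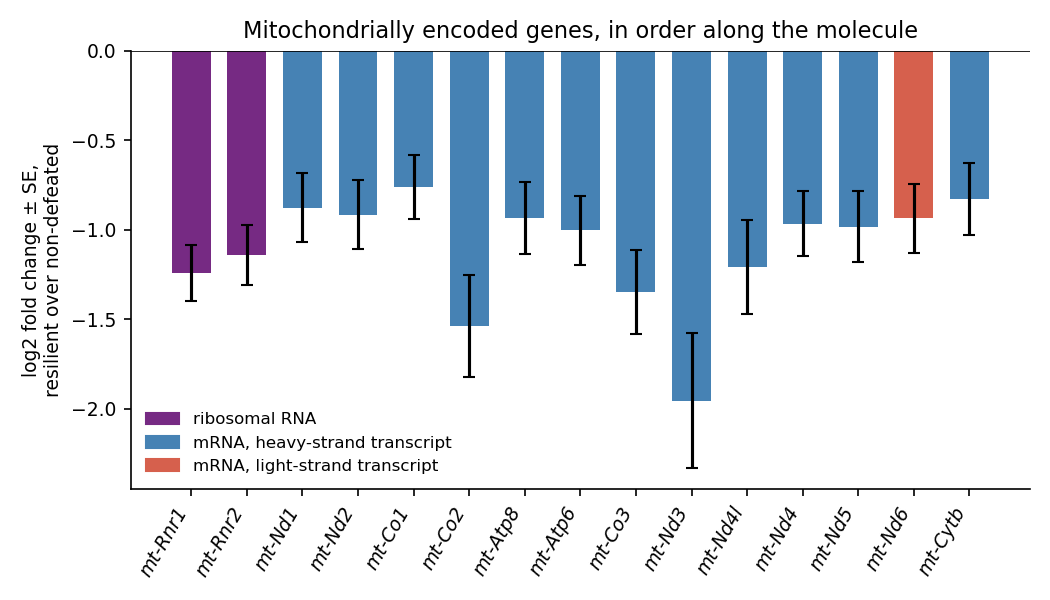
Log2 fold change (resilient over non-defeated, log2(CPM + 1) scale) of the 15 mitochondrially encoded ribosomal RNA and messenger RNA genes, in order along the molecule; bars are fitted values and whiskers ± SE. All 15 are negative, from -0.76 (mt-Co1) to -1.95 (mt-Nd3), and mt-Nd6, made from the other strand, stands at -0.94.

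Against susceptible mice, 8 of 17111 genes passed (0.0468%), all lower in resilient mice: mt-Rnr1, mt-Rnr2, 5 mitochondrial messenger RNAs and Capn3, a calpain protease gene. Over the 13 messenger RNAs the median log2 fold change from susceptible mice was -1.23. Every resilient library lay below both susceptible libraries with the letter N for all 15 genes. The count of 8 depended on single libraries: it was 0 when any resilient or any susceptible library, or non-defeated replicate 1 or 2, was left out, 2 without non-defeated replicate 4 and 10 without non-defeated replicate 3. Both comparisons use the same resilient libraries, so they are not independent of each other.

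Old copies of mitochondrial DNA lie in the nuclear genome, and reads of a mitochondrial RNA can be placed on them. Among the genes tested, Gm28437 on chromosome 1 is the same as mt-Co3 over all 783 bases aligned, and Gm13340 on chromosome 2 has 97.6% identity with mt-Co1 and 37 mismatches over 1545 bases. Their first 120 bases (GRCm38, GENCODE M21 transcripts, each on its own strand) are given because they show how little a read could tell them apart; capitals mark bases that differ within a pair.
mt-Co3 (chrM:8607-8726, plus strand): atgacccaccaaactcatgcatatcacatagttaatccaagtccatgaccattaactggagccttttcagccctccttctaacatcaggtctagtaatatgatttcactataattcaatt
Gm28437 (chr1:24613852-24613971, minus strand): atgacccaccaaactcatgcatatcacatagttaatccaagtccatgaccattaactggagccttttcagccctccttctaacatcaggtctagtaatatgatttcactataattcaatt
mt-Co1 (chrM:5328-5447, plus strand): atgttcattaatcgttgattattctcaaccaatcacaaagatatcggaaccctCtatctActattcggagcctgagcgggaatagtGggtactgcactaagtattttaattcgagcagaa
Gm13340 (chr2:22589528-22589647, minus strand): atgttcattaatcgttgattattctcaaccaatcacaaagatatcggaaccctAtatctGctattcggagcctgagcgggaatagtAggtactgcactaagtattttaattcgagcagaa
The windows of mt-Co3 and Gm28437 hold 0 differences, and those of mt-Co1 and Gm13340 hold 3. Gm13340 stood at 384, 378, 446 and 384 CPM in resilient and 647, 706, 519 and 814 CPM in non-defeated libraries (log2 fold change -0.74 ± 0.16), close to mt-Co1. Gm13341, a copy of mt-Co2 with 16 mismatches over 672 bases, had -1.15 ± 0.26. For Gm28437, Gm13340 and Gm13341 the groups did not overlap. They overlapped for Gm28661 (-1.05 ± 0.39) and Gm10925 (-0.98 ± 0.32), the same as mt-Co2 and mt-Atp6 over the bases aligned. Overlap was also seen for Gm29216 (-0.56 ± 0.27), Gm13339 (-0.65 ± 0.32), Gm11407 (-0.35 ± 0.28) and Gm28438, a copy of mt-Nd3 (-0.33 ± 0.40). How reads with several matches were handled is not given in the sources used here.

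Nuclear genes for the same machinery had smaller fold changes. Of 77 nuclear subunits of complexes I to V tested, 50 had negative fold changes, with a median of -0.10. At an unadjusted p under 0.05, 2 were lower and 1 was higher, where 2.87% of all genes were lower and 4.27% higher. Complex I alone, with 36 nuclear subunits, had a median of -0.04 and summed to 7272 CPM in resilient and 7310.3 CPM in non-defeated libraries on average. The 7 mitochondrial subunits of the same complex summed to 10514 and 20298 CPM in those groups. Smallest in p within complex I was Ndufv1, the subunit that binds NADH, at 342 ± 34.2 CPM in resilient and 291 ± 14.5 CPM in non-defeated libraries (SD, n = 4 each; log2 fold change 0.23 ± 0.13). All 11 nuclear complex IV subunits had negative values, with a median of -0.21. Among them Cox7c, a small structural subunit, stood at 30.2, 23.2, 23.5 and 30.6 CPM in resilient and 33.4, 36.5, 38.4 and 99.9 CPM in non-defeated libraries (-0.78 ± 0.30), where non-defeated replicate 4 stood far above the rest. Uqcrc1, a core protein of complex III, had the largest positive value of the 9 nuclear genes of that complex, 0.44 ± 0.15. The 25 nuclear subunits of complexes II, III and IV together had a median of -0.13, and the 16 of the ATP synthase one of -0.19, with Atp5g2, of its membrane ring, at -0.59 ± 0.21.

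The sign of the nuclear subunits depended on the libraries that stand apart. Nuclear complex I subunits summed to 5468 CPM in resilient replicate 4, the lowest of its group. They summed to 8044 and 8537 CPM in non-defeated replicates 3 and 4, the highest of theirs. Leaving these libraries out raises that difference by itself. Without the 3 libraries 71 of the 77 were positive and 6 negative, with a median of 0.26, and 20 had an unadjusted p under 0.05 and were higher. In that fit 5.92% of all genes were higher at that p, 5.84% were lower, and 50.7% of all fold changes were negative. With the title letter as a term 59 of the 77 were negative, with a median of -0.21, where 48.5% of all genes were negative. With 1 library left out the number of positive subunits ran from 14, without resilient replicate 1, to 42, without resilient replicate 4, and up to 7 were lower at that p, without non-defeated replicate 1. For the 13 mitochondrial messenger RNAs the count of negative values was 13 in each of these fits.

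Other nuclear genes of the organelle had medians near 0 with all libraries, and the sign again turned with the libraries used. The 77 mitochondrial ribosomal protein genes, partners of the mitochondrial ribosomal RNAs, had a median of -0.05, 45 negative, and 0 with an unadjusted p under 0.05; Mrps35 had the smallest p (-0.44 ± 0.23). Of 22 protein import genes 15 were negative, with a median of -0.11 and 0 at that p. Without resilient replicate 4, 51 of the 77 ribosomal protein genes and 11 of the 22 import genes were positive. Without the 3 libraries 66 and 17 were, with medians of 0.21 and 0.15. In that fit 8 and 4 were higher at that p, where 5.92% of all genes were. Without resilient replicate 1 the counts of positive genes were 16 and 3. Among 34 genes for replication, transcription and RNA handling of mitochondrial DNA the median was 0.04. At that p 0 were lower, beside 2.87% of all genes. Without non-defeated replicate 4, and with the title letter as a term, 0 were higher. With all libraries 2 were higher (5.88%, beside 4.27% of all genes). These were Ppargc1a, a coactivator that drives mitochondrial biogenesis, at 85.4, 99.6, 120.4 and 69.8 CPM in resilient and 63.2, 48.8, 87.5 and 44.96 CPM in non-defeated libraries (0.63 ± 0.26), and Lrpprc, which stabilises mitochondrial messenger RNAs. Lrpprc stood at 35.8, 39.8, 38.9 and 90.8 CPM in resilient and 40.7, 31.5, 22.8 and 20.1 CPM in non-defeated libraries (0.75 ± 0.32), with resilient replicate 4 far above the other resilient libraries. Without the 3 libraries Lrpprc was at 0.09, and with the title letter as a term Ppargc1a was at -0.08.

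Genes that feed the respiratory chain had more positive than negative fold changes, and none passed by limma-trend. Of 21 tricarboxylic acid cycle genes 17 were positive, with a median of 0.18. At an unadjusted p under 0.05, 2 were higher (9.52%, beside 4.27% of all genes). Without resilient replicate 4 there were 6, where 5.7% of all genes were higher. Dlat, a component of pyruvate dehydrogenase, stood at 221, 215, 195 and 218 CPM in resilient and 171, 177, 171 and 170.4 CPM in non-defeated libraries, without overlap (0.30 ± 0.12; limma-trend, adjusted p = 0.592). Pdha1, of the same enzyme, was at 0.43 ± 0.15. Of 19 glycolysis genes 12 were positive and 5 had an unadjusted p under 0.05 and were higher, a share of 26.3% where 4.27% of all genes did so. Pfkl and Pfkp, of the phosphofructokinase step, and Ldhb, a lactate dehydrogenase, were at 0.55 ± 0.17, 0.52 ± 0.21 and 0.37 ± 0.14. The count of 5 was 1 without resilient replicate 2, non-defeated replicate 2 or non-defeated replicate 4, and 2 with the title letter as a term. The glycolysis median was 0.09, and it was 0.01 without the 3 libraries and 0.33 with the letter.

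Genes for mitochondrial fission, fusion and mitophagy were positive in 12 of 16 cases, with a median of 0.25, which ran from 0.19 to 0.25 with 1 library left out. Mfn2, the outer membrane protein that fuses mitochondria, stood at 328, 353, 343 and 319 CPM in resilient and 262, 293, 246 and 265 CPM in non-defeated libraries. All resilient values lay above all non-defeated and all susceptible ones, and its log2 fold change of 0.33 ± 0.13 did not pass (limma-trend, adjusted p = 0.586). Of 26 autophagy genes 5 (19.2%) had an unadjusted p under 0.05 and were higher, beside 4.27% of all genes, and 0 were lower. For 4 of the 5 the groups did not overlap, where 1.98% of all genes were higher without overlap. The autophagy median was 0.09. In the fit with the title letter as a term, and in that without the 3 libraries, 1 was higher and 1 lower at that p, and with 1 library left out 3 to 6 were higher, the fewest without resilient replicate 3 or non-defeated replicate 2, 3 or 4. The 5 genes were Ulk1 and Ulk2, the kinases that start autophagosome formation, Rb1cc1, the scaffold of that kinase complex, Pik3c3, the lipid kinase that acts next, and Optn, a receptor for cargo. Ulk2 stood at 68.6, 92.6, 71.7 and 66.005 CPM in resilient and 46.04, 33.7, 22.5 and 23.2 CPM in non-defeated libraries (1.27 ± 0.35). In susceptible libraries it stood at 18.98, 38.6, 66.5 and 63.2 CPM, higher in both with the letter N, and with the title letter as a term Ulk2 was at 0.05. Pik3c3 and Rb1cc1 were at 0.59 ± 0.23 and 0.80 ± 0.25 and had 0.77 and 0.99 with that term.

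**Figure D3:**
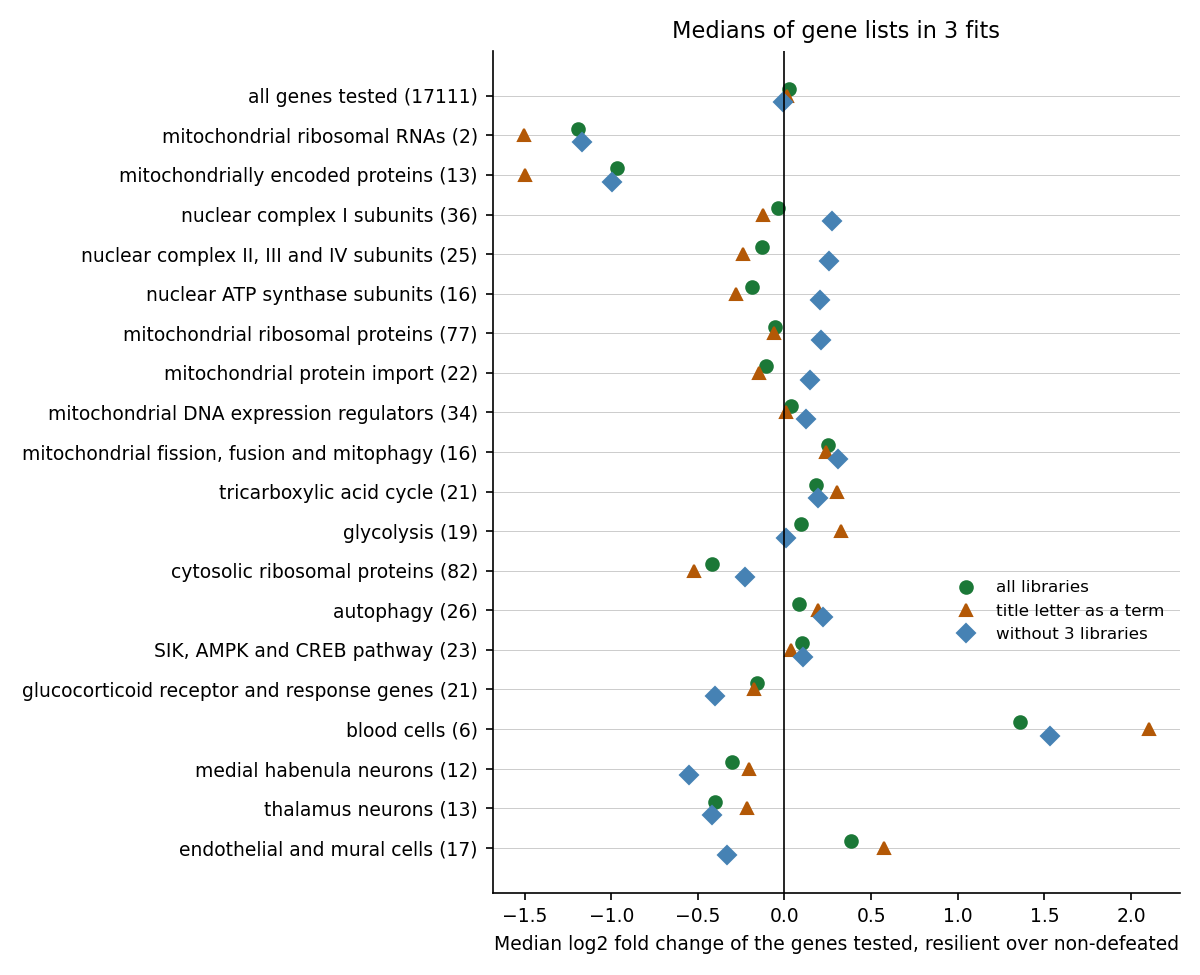
Median log2 fold change (resilient over non-defeated) of the genes tested in each list, with their number in brackets, in 3 fits: all libraries (circles), with the title letter as a term (triangles), and without resilient replicate 4 and non-defeated replicates 3 and 4 (diamonds). Mitochondrially encoded genes, cytosolic ribosomal proteins and the glucocorticoid, medial habenula and thalamus lists are below 0 in all 3 fits. Blood cell markers are among the lists above 0 in all 3, while nuclear respiratory subunits and endothelial markers change side.

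Cytosolic ribosomal protein genes, whose products with ribosomal RNA form the ribosomes of the cytoplasm, made up the widest nuclear difference. Of 82 tested 80 had negative fold changes, and 42 (51.2%) had an unadjusted p under 0.05 and were lower, where 2.87% of all genes did so. For 24 every resilient value lay below every non-defeated one, as for 1.68% of all genes. Their median was -0.42, and 0 passed the adjusted threshold by limma-trend, while DESeq2 and voom each called 1, Rps2, lower. Summed over the list they took 0.616, 0.644, 0.649 and 0.687% of reads in resilient and 0.687, 0.813, 0.854 and 1.13% in non-defeated libraries. The resilient libraries lay close together, non-defeated replicate 1 stood next to them and replicate 4 highest. Susceptible libraries, at 0.717, 0.774, 0.657 and 0.876%, overlapped with both groups.

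Rps2, a protein of the small subunit at the channel where messenger RNA enters, stood at 74.1, 77.2, 73.3 and 91.1 CPM in resilient and 117, 143, 126 and 163 CPM in non-defeated libraries, without overlap (-0.79 ± 0.16; limma-trend, adjusted p = 0.24). For the large subunit, Rpl27a was at -0.88 ± 0.27 and Rpl36 at -0.63 ± 0.20. Ribosomal protein genes have many processed copies in the genome, so their counts depend on how reads with several matches were placed. Without the 3 libraries 75 of 82 were negative, the median was -0.23 and Rps2 was at -0.79. In that fit 8 of the 82 were lower at an unadjusted p under 0.05, where 5.84% of all genes were. Leaving out non-defeated replicate 4 alone gave 17 lower at that p, with a median of -0.29, the fewest with 1 library left out, and without non-defeated replicate 1 there were 57. With the title letter as a term 78 were negative, the median was -0.52 and 8 were lower at that p, where 1.71% of all genes were lower and 2.2% higher.

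Of 59 translation initiation and elongation factors tested, 36 were positive with a median of 0.04, beside 0.02 over all genes. At an unadjusted p under 0.05, 4 were lower (6.78%, beside 2.87% of all genes) and 0 higher. Among the 4, Eef1a1, which brings aminoacyl-tRNA to the ribosome, stood at 452, 458, 487 and 613 CPM in resilient and 669, 761, 668 and 968 CPM in non-defeated libraries, without overlap (-0.60 ± 0.15). Eef1g, a subunit of the exchange factor of that elongation step, and Eif4a1, an RNA helicase of initiation, were at -0.37 ± 0.13 and -0.41 ± 0.16. Without resilient replicate 4, 6 factors were lower and 3 higher at that p, where 5.3% of all genes were lower and 5.7% higher. CT010467.1, annotated as ribosomal RNA on chromosome 17, was at 88.9, 219, 109.9 and 1522 CPM in resilient and 1026, 1219, 580.1 and 2804 CPM in non-defeated libraries. Resilient replicate 4 lay within the non-defeated range and the other 3 below it.

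Many of these transcripts are short, and fold changes varied with exon length among other genes. Among nuclear protein-coding genes averaging at least 1 CPM, with ribosomal proteins left out, the median log2 fold change was -0.15 for the 209 genes with up to 1000 bases of merged exons, and 0.06 for the 4552 genes with 5000 to 10000. Without the 3 libraries those medians were 0.16 and -0.09, and the ribosomal protein median was -0.23. With all libraries, ribosomal protein genes had medians of -0.46, -0.43, -0.40, -0.39, -0.41 and -0.47 in classes from up to 1000 bases to 5000 to 10000. These classes held 11, 16, 19, 20, 13 and 2 genes. The part of exon length in the ribosomal protein difference was not tested. Resilient replicate 4 departed most from the mean of all libraries, by -0.38 for the shortest and 0.64 for the longest class.

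**Figure D4:**
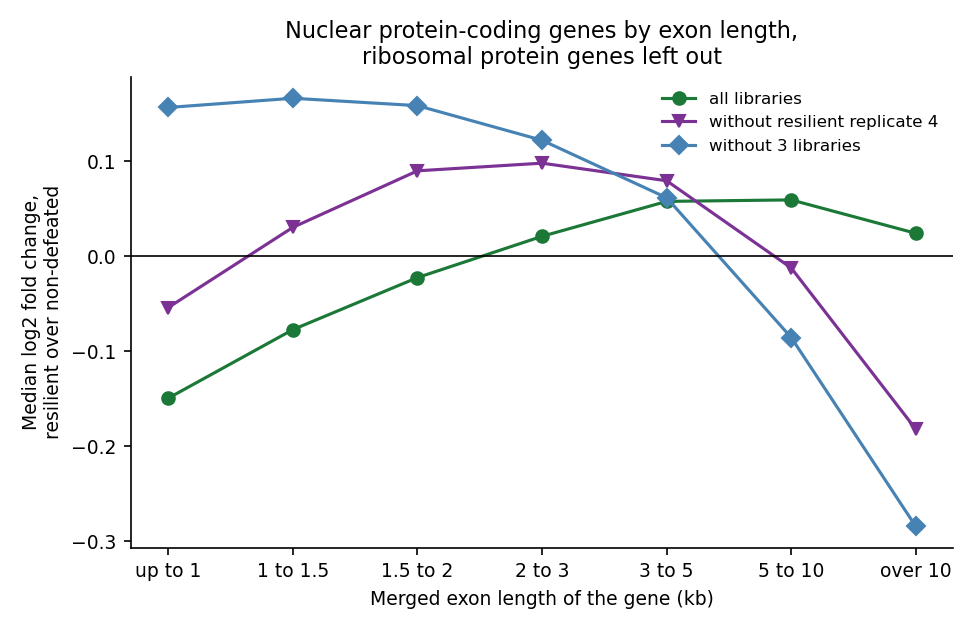
Median log2 fold change (resilient over non-defeated) of nuclear protein-coding genes averaging at least 1 CPM, without ribosomal protein genes, in 7 classes of merged exon length, in kb. Short genes have a median of -0.15 with all libraries (circles), -0.05 without resilient replicate 4 (triangles) and 0.16 without that library and non-defeated replicates 3 and 4 (diamonds).

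Single nuclear genes lower in resilient mice, none of which passed by limma-trend, were headed by Ergic1. Voom called Ergic1, and DESeq2 called Ergic1, Max, Vma21, Aph1c, Raly and 1810030O07Rik of those described here. Ergic1 codes for a protein that cycles between the endoplasmic reticulum and the Golgi, and it stood at 82.1, 100.2, 74.1 and 140.2 CPM in resilient and 170.4, 215, 205 and 219 CPM in non-defeated libraries. The groups did not overlap, and the susceptible libraries, at 177, 144, 167 and 207 CPM, lay above the resilient ones (-1.06 ± 0.19; limma-trend, adjusted p = 0.212). Max codes for the partner of Myc in DNA binding and stood at 13.7, 33.5, 16.4 and 49.2 CPM in resilient and 99.4, 94.6, 59.9 and 156 CPM in non-defeated libraries (-1.92 ± 0.39). Vma21, an assembly factor of the proton pump of acidic organelles, stood at 95.8, 99.7, 91.7 and 101 CPM in resilient and 146, 171, 139 and 209 CPM in non-defeated libraries (-0.75 ± 0.16). Resilient values of Vma21 lay within a narrow band below all other libraries. The 19 genes of that pump and its assembly had a median of -0.002, with Atp6v1b2, a subunit of its ATP-splitting head, at 0.35 ± 0.14.

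Aph1c, a subunit of gamma-secretase, which cleaves membrane proteins such as Notch and the amyloid precursor, stood at 2.75, 2.63, 1.26 and 3.15 CPM in resilient and 9.40, 7.81, 8.26 and 10.2 CPM in non-defeated libraries (-1.55 ± 0.33). It has a near-identical neighbour in the mouse genome, Aph1b, so its share of reads is uncertain; the 12 genes of its list had a median of -0.08. Raly, an RNA-binding protein of the heterogeneous ribonucleoprotein family, stood at 6.02, 5.21, 7.44 and 17.6 CPM in resilient and 33.5, 28.1, 20.9 and 30.99 CPM in non-defeated libraries (-1.67 ± 0.37). The uncharacterised gene 1810030O07Rik stood at 31.7, 33.5, 34.3 and 29.3 CPM in resilient and 50.6, 58.1, 57.3 and 54.98 CPM in non-defeated libraries (-0.76 ± 0.17). Of these, Ergic1, Max, Vma21, Aph1c and Raly had log2 fold changes of -1.28, -1.81, -0.95, -1.82 and -1.86 with the title letter as a term. Brs3, an orphan receptor of the bombesin family, had 24, 4, 0 and 0 reads in resilient and 82, 67, 117 and 88 in non-defeated libraries (-1.39 ± 0.25). It had enough reads to be tested only through the non-defeated libraries. Nfatc2ip, which binds NFAT transcription factors, was also near its detection limit in resilient libraries (-1.20 ± 0.26). The susceptible libraries held 0 reads of Brs3 and little of Nfatc2ip, so for these genes the non-defeated group stood apart from both defeated groups.

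Among the genes higher in resilient mice, which passed by limma-trend in 0 cases, Ctnnd2 and Sik3 had the smallest p of those averaging at least 5 CPM. DESeq2 called 43 genes higher and voom 1. Ctnnd2 codes for delta-catenin of dendrites and synapses and stood at 98.7, 96.2, 105 and 82.5 CPM in resilient and 41.3, 63.7, 51.96 and 34.2 CPM in non-defeated libraries. All resilient values lay above all non-defeated ones (1.02 ± 0.20; limma-trend, adjusted p = 0.24), and the susceptible libraries, at 67.3, 59.7, 89.9 and 72.5 CPM, overlapped with both groups. Sik3, a salt-inducible kinase that acts in the cAMP response and in sleep need, stood at 48.5, 52.5, 62.9 and 32.9 CPM in resilient and 10.01, 15.02, 13.1 and 22.5 CPM in non-defeated libraries (1.65 ± 0.35). Its susceptible values were 17.7, 23.5, 59.7 and 25.99 CPM, and with the title letter as a term it was at 0.74, against 0.67 for Ctnnd2. Abcc4, an exporter of cyclic nucleotides and drugs, stood at 4.81, 6.38, 4.65 and 15.6 CPM in resilient and 1.99, 0.497, 0.676 and 0.710 CPM in non-defeated libraries (2.07 ± 0.45), with resilient replicate 4 highest. Pcdhb11, one of a cluster of similar protocadherin genes, was at 1.95 ± 0.43; in susceptible libraries these genes had means of 5.79 and 4.31 CPM.

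A pair of transcription factor genes was close to absent outside the resilient group. E2f8, a repressor of cell cycle genes, had 83, 53, 117 and 42 reads in the resilient libraries and 0 in each non-defeated and each susceptible library, at least 105-fold higher when 3 reads over the pooled non-defeated group are taken as the floor. Dlx2, a homeobox gene of GABA neuron precursors, had 78, 35, 124 and 22 reads in resilient libraries, 0, 0, 0 and 2 in non-defeated ones and 0 in susceptible ones. Both remained at low levels, with means of 1.77 and 1.53 CPM in resilient mice. Neither passed by limma-trend (adjusted p = 0.212 and 0.315), while DESeq2 and voom called E2f8. Both had enough reads to be tested only through the resilient libraries, so these tests and the floor are no support for a difference. Reads were amplified without molecular identifiers, so the floor covers counting error only. Of 11 proliferation markers tested 10 were positive, with a median of 0.39 (0.39 with E2f8 at its bound). E2f8 alone had an unadjusted p under 0.05 and was higher (9.09%, beside 4.27% of all genes). Without resilient replicate 4 there were 3, where 5.7% of all genes were higher. The defining markers Mki67 and Top2a were not analysed here.

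**Figure D5:**
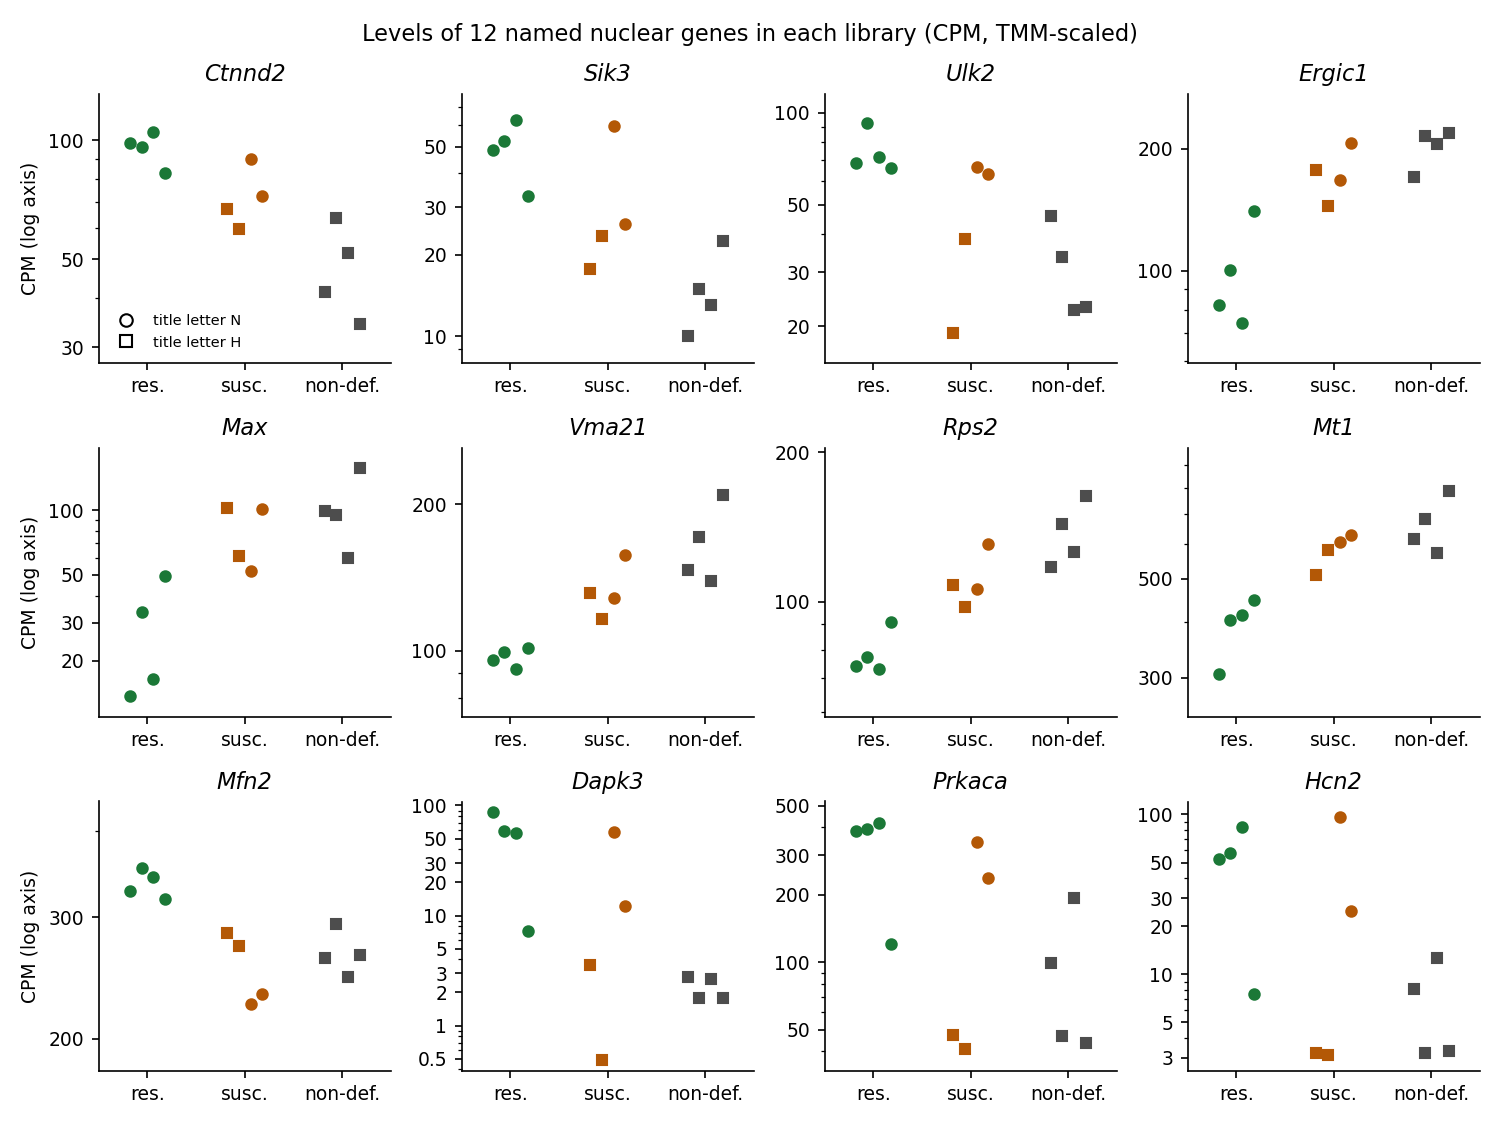
Levels of 12 named nuclear genes in each library (CPM, TMM-scaled, log axis) for resilient, susceptible and non-defeated mice, 4 libraries each; circles and squares mark the letter N or H of the title. Ctnnd2 and Vma21 separate the resilient from the non-defeated libraries, while Dapk3, Prkaca and Hcn2 are high in resilient replicates 1 to 3 and in the susceptible libraries with N, and lower in resilient replicate 4.

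The largest positive fold changes followed another pattern. Among genes averaging at least 5 CPM with an unadjusted p under 0.05, the 8 with the largest were Dapk3, Ano8, Vstm2l, Arf6, 2510039O18Rik, Plekha3, Adra2c and Hcn2. Dapk3, a death-associated protein kinase, stood at 86.9, 59.2, 56.6 and 7.25 CPM in resilient and 2.79, 1.79, 2.64 and 1.78 CPM in non-defeated libraries (3.63 ± 0.92), and at 3.57, 0.487, 57.02 and 12.2 CPM in susceptible ones. Hcn2, a channel of the hyperpolarisation-activated current that paces neurons, stood at 52.6, 57.7, 83.9 and 7.55 CPM in resilient and 8.06, 3.23, 12.6 and 3.32 CPM in non-defeated libraries (2.50 ± 0.93), and at 3.20, 3.12, 96.3 and 24.8 CPM in susceptible ones. Arf6, a small GTPase of membrane recycling, stood at 93.9, 65.7, 63.9 and 5.25 CPM in resilient and 5.21, 3.51, 9.86 and 4.13 CPM in non-defeated libraries (2.67 ± 0.90). For Hcn2 and Arf6 the groups overlapped, through resilient replicate 4. In all 8 genes resilient replicate 4 was the lowest resilient library, and both susceptible libraries with N were above both with H. With the title letter as a term these genes ranged from -1.09 (Hcn2) to 0.68 (Adra2c).

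Over all 731 genes higher at an unadjusted p under 0.05, 511 (69.9%) were also higher in susceptible libraries with N than in those with H, where 8437 of 17111 genes (49.3%) were. Of the 491 lower genes, 213 (43.4%) were lower in susceptible libraries with N, beside 50.3% of all genes. For the 15 mitochondrial RNAs and 62 of 82 ribosomal protein genes the susceptible libraries with N were the higher ones, opposite to the difference of resilient from non-defeated mice. These shares come from 2 libraries against 2 and carry no test. The susceptible mice with N also had lower interaction ratios, 0.13 and 0.55 against 0.69 and 0.63 with H.

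Several genes of cAMP signalling and of glutathione synthesis were also high in the susceptible libraries with N. Prkaca, the catalytic subunit of protein kinase A, stood at 384, 392, 418 and 121 CPM in resilient and 99.3, 46.96, 194 and 43.7 CPM in non-defeated libraries (1.88 ± 0.68), and at 47.5, 40.99, 346 and 237 CPM in susceptible ones. With Sik3 and the regulatory subunits Prkar2b (0.85 ± 0.37), Prkar1a and Prkar2a it made 5 of 23 genes of the SIK, AMPK and CREB list with an unadjusted p under 0.05 and higher (21.7%, beside 4.27% of all genes); the median of that list was 0.10. Under the title letter term 0 were higher at that p, and without resilient replicate 2 there were 2. Without resilient replicate 4 there were 4 higher and 2 lower, with a median of -0.02. With all libraries DESeq2 called 1 gene of the list higher, and voom 0. Gclc and Gclm, the subunits of the enzyme that limits glutathione synthesis, were at 1.73 ± 0.50 and 1.19 ± 0.43, and Gsr, which regenerates glutathione, at 0.89 ± 0.32. These 3 were the antioxidant genes at that p, of 25 (where 4.27% of all genes were higher) with a median of -0.03, which was 0.12 without resilient replicate 4. Without non-defeated replicate 4 there was 1, and with the title letter as a term they were at -0.31, -0.37 and 0.61. Among 35 potassium and HCN channel genes (median 0.06) 5 were higher (14.3%, beside 4.27% of all genes) and 1 lower (2.86%, beside 2.87%) at that p, with Hcn4 at 1.25 ± 0.40 and Kcnk3, a leak channel, at 1.26 ± 0.47. With the title letter as a term 0 were higher and 1 lower, with a median of -0.05, and without resilient replicate 4 the median was -0.02; without resilient replicate 3 there were 3 higher.

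The metallothionein genes Mt1 and Mt2, whose products bind zinc and copper, are induced by metals through the factor MTF1 and by glucocorticoids. Mt1 stood at 306, 404, 416 and 448 CPM in resilient and 616, 683, 573 and 789.8 CPM in non-defeated libraries, and Mt2 at 10.003, 12.5, 13.3 and 15.3 CPM in resilient and 21.5, 23.5, 19.9 and 26.9 CPM in non-defeated libraries. In both the groups did not overlap, with log2 fold changes of -0.76 ± 0.15 and -0.80 ± 0.24 (limma-trend, adjusted p = 0.239 and 0.55), and both lay below 0 with the title letter as a term (-0.94 and -1.01). Since both were lower and they are neighbours, their promoters (RefSeq, GRCm38.p6, 250 bases before to 50 after the start) are given with matches to TGCNCNC, a relaxed form of the core of the metal response element, in capitals on either strand.
Mt1 (chr8:94178839-94179138, plus strand): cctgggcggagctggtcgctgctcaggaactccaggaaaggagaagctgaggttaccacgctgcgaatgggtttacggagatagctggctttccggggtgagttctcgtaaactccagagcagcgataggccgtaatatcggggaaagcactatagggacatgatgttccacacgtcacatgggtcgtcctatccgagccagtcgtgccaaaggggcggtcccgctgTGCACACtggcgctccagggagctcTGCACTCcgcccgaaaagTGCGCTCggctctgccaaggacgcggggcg
Mt2 (chr8:94172368-94172667, plus strand): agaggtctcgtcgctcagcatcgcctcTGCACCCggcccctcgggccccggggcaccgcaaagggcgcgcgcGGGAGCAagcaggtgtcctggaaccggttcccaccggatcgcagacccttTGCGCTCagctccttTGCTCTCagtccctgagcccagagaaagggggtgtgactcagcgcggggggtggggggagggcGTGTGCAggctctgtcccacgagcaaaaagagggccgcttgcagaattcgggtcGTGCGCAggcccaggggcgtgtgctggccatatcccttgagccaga
The Mt1 window holds 3 matches, all forward, and the Mt2 window 6, of which 3 are forward and 3 reverse. Of 32851 mouse promoters of this length 7.10% hold at least 3 matches and 0.225% at least 6. A match describes these letters and is not a measured site.

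In the glucocorticoid list of 21 genes, 13 were negative, with a median of -0.16. DESeq2 called 2 of the 21 lower, voom 1 and limma-trend 0. At an unadjusted p under 0.05, Mt1, Mt2 and the cell cycle inhibitor Cdkn1a were lower (14.3%, beside 2.87% of all genes). Klf9 was higher at that p (4.76%, beside 4.27%). Without resilient replicate 4, 6 were lower at that p, where 5.3% of all genes were. Klf9, a transcription factor gene that glucocorticoids induce, stood at 97.9, 107, 126 and 107 CPM in resilient and 62.1, 49.3, 82.2 and 35.1 CPM in non-defeated libraries (0.98 ± 0.31), and at 50.6, 55.2, 128 and 115 CPM in susceptible ones, where both libraries with N were high. Among 23 heat shock and chaperone genes (median 0.08) Hspa8, the constitutive Hsp70 of neurons, stood at 1895, 2222, 2236 and 2320.4 CPM in resilient and 1765, 1288, 1672 and 1275 CPM in non-defeated libraries, without overlap (0.54 ± 0.14). Hsf1, the factor that induces heat shock genes, was at 0.46 ± 0.19 and Dnajb5 at -1.28 ± 0.55. The 21 integrated stress response genes had a median of 0.02, with Atf4, the factor that drives them, at -0.59 ± 0.19. Circadian clock genes, 21 tested with a median of 0.11, had 3 higher (14.3%, beside 4.27% of all genes) and 1 lower (4.76%, beside 2.87%) at that p. Among those at that p were Nfil3 at 1.14 ± 0.40, Csnk1e at 0.80 ± 0.28 and Csnk1d at -0.34 ± 0.15. The circadian median was -0.07 without resilient replicate 4 and -0.08 without non-defeated replicate 3. For 19 immediate early genes, which mark recent firing, the median was 0.05 and 1 was higher at that p (5.26%, beside 4.27% of all genes). It was Jund, at 1.63 ± 0.69 and at -0.65 with the title letter as a term.

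Synaptic lists had medians near 0 with all libraries and negative ones without resilient replicate 4. With all libraries the medians were -0.07 over 44 vesicle and release genes, -0.01 over 45 postsynaptic and adhesion genes, 0.01 over 17 ionotropic glutamate receptors and 0.004 over 26 sodium and calcium channels. Without resilient replicate 4 they were -0.16, -0.15, -0.22 and -0.19 in the same order, and 8, 9, 1 and 5 genes were lower at an unadjusted p under 0.05, where 1, 2, 0 and 1 were with all libraries. Among all genes 5.3% were lower at that p without that library, and 2.87% with all libraries. With all libraries DESeq2 called 1 of the postsynaptic and adhesion genes higher, and voom 0. The medians without the 3 libraries were -0.09, -0.25, -0.18 and -0.40, and without resilient replicate 1 that of the vesicle genes was 0.07 and that of the postsynaptic genes 0.11. Of 16 genes for GABA receptors and synthesis 11 were negative, with a median of -0.12, and 3 (18.8%, beside 2.87% of all genes) were lower at an unadjusted p under 0.05. Under the title letter term 8 were negative and 8 positive, the median was -0.02 and 0 were lower at that p; the count was 1 without resilient replicate 1 or 3, non-defeated replicate 1 or 3, or susceptible replicate 2, 3 or 4, and without resilient replicate 3 the median was 0.03. The 3 were the receptor subunits Gabra3 (-0.58 ± 0.23), Gabra2 (-0.66 ± 0.30) and Gabbr1 (-0.61 ± 0.28), the last a subunit of the metabotropic receptor. Gabra3 stood at 40.1, 39.5, 24.8 and 40.7 CPM in resilient and 45.96, 50.4, 60.97 and 58.5 CPM in non-defeated libraries, without overlap, and at 0.07 (log2 fold change) with the title letter as a term. Syn2, a synapsin of vesicles, stood at 152, 224, 216 and 118 CPM in resilient and 81.6, 49.8, 94.95 and 76.3 CPM in non-defeated libraries (1.21 ± 0.35) and belongs to the genes that are high in susceptible libraries with N. Dlg4, the main scaffold of excitatory synapses, was at -0.75 ± 0.32, Shank2 at -0.73 ± 0.32, and in both resilient replicate 4 was the highest resilient library. Cacng2, which carries AMPA receptors to the synapse, was at -0.54 ± 0.25. Among 30 cytoskeleton genes (median 0.05, and -0.05 without resilient replicate 4) Map1b, a microtubule protein of growing axons, stood at 1065, 1311, 1015 and 1414 CPM in resilient and 943, 686, 812 and 595 CPM in non-defeated libraries, without overlap (0.67 ± 0.17), with Nefh at 1.37 ± 0.50 and Stmn2 at -0.44 ± 0.20.

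Lists of gene regulation moved with resilient replicate 4. Among all genes 4.27% were higher and 2.87% lower at an unadjusted p under 0.05, and without that library 5.7% were higher and 5.3% lower. The 51 splicing factors had a median of -0.02, with 4 higher and 1 lower at an unadjusted p under 0.05; without that library the median was -0.18, with 4 higher and 11 lower. Of 60 chromatin genes 3 were higher and 1 lower at that p, with a median of -0.02; without that library 1 was higher and 14 lower, with a median of -0.21. Of 18 long non-coding RNAs 13 were negative, with a median of -0.18 and 2 lower at that p, and without that library 6 were lower with a median of -0.48. These medians without the 3 libraries were -0.31, -0.39 and -0.68, and 13, 11 and 10 genes were lower at that p, where 5.84% of all genes were. Without resilient replicate 1, by contrast, the splicing and chromatin medians were 0.10 and 0.09. Srsf3, the lower one, stood at 271, 277, 250.4 and 258 CPM in resilient and 310.3, 349, 333 and 337 CPM in non-defeated libraries (-0.33 ± 0.12); Hnrnpd and Srsf9 were at 1.41 ± 0.47 and 1.29 ± 0.46. The 37 proteasome subunits had a median of 0.05, which was 0.26 without the 3 libraries and -0.03 without resilient replicate 1. Over 21 interferon response genes the median was 0.15, and -0.19 without resilient replicate 4. Over 22 cholesterol synthesis genes it was 0.12, and -0.12 without the 3 libraries. Kdm1a, a histone demethylase, was at 1.79 ± 0.60 and Kat6a, a histone acetyltransferase, at -0.69 ± 0.25. Among the long non-coding RNAs, Gas5, a host gene of small nucleolar RNAs, stood at 66.5, 76.99, 71.7 and 75.99 CPM in resilient and 93.9, 109.7, 86.4 and 146 CPM in non-defeated libraries, without overlap (-0.55 ± 0.18). The imprinted non-coding RNA Rian was at -1.83 ± 0.65, with resilient replicate 4 at 83.3 CPM and the other 3 resilient libraries at 7.37 to 16.8 CPM. Srebf2, which controls cholesterol synthesis, was at -0.46 ± 0.19 while 18 of the 22 genes of that list were positive.

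All 6 blood cell markers tested were positive, with a median of 1.36, and 0 passed by limma-trend, DESeq2 or voom. For 5 of them the groups did not overlap, where 1.98% of all genes were higher without overlap. The markers summed to 1150.0 to 2166 CPM in resilient and 368 to 936 CPM in non-defeated libraries. The defining genes Slc4a1, S100a8 and S100a9 were not analysed here. Hba-a1 and Hba-a2, near-identical genes of alpha globin that share reads, were at 1.38 ± 0.45 and 1.58 ± 0.46, and Alas2, of heme synthesis in red cell precursors, stood at 16.05, 17.7, 24.4 and 31.96 CPM in resilient and 2.25, 12.8, 6.97 and 2.99 CPM in non-defeated libraries (1.89 ± 0.58). Susceptible libraries held 995 to 5818 CPM. The blood markers together took 0.116 to 0.238% of reads in resilient libraries, a share that does not measure how much blood RNA a library holds. Mature red cells lack mitochondria, and the part of blood in the mitochondrial difference was not tested.

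Markers of neighbouring neurons had mostly negative fold changes. Medial habenula markers were negative in 10 of 12 cases, 3 of them (25.0%, beside 2.87% of all genes) lower at an unadjusted p under 0.05, with a median of -0.30. DESeq2 called 2 of the 12 lower, and limma-trend and voom 0. Under the title letter term 7 of 12 were negative, 0 were lower at that p and the median was -0.21; with 1 library left out the median ran from -0.65 to -0.25. Tac2, the neurokinin B precursor, stood at 7.51, 8.74, 12.7 and 20.4 CPM in resilient and 32.4, 17.6, 118 and 60.5 CPM in non-defeated libraries (-1.89 ± 0.48), the nicotinic subunits Chrna3 and Chrnb4 at -2.11 ± 0.61 and -1.92 ± 0.67, and in each the groups overlapped. Thalamus markers were negative in 12 of 13 cases, with a median of -0.40 and summed levels of 441 to 619 CPM in resilient and 649 to 1049.6 CPM in non-defeated libraries. Without non-defeated replicate 4, 9 of 13 were negative with a median of -0.15, and with the title letter as a term 9 of 13 with a median of -0.22. Among the thalamus markers Slc17a7, a vesicular glutamate transporter, was at -1.33 ± 0.54 and Adarb1, an RNA-editing enzyme, at -0.66 ± 0.23. The 9 hippocampus markers had a median of -0.44 (-0.19 without the 3 libraries, and -0.25 without non-defeated replicate 2), and Wfs1 was at -0.70 ± 0.31. Lateral habenula markers themselves had a median of -0.08. At an unadjusted p under 0.05, 1 of them was lower (8.33%, beside 2.87% of all genes), Vgf, a neuropeptide precursor, at -0.92 ± 0.35. Also at that p 1 was higher (8.33%, beside 4.27% of all genes), Syn2, at 1.21 ± 0.35. The 10 GABA neuron markers had a median of 0.09. With 1 library left out these medians ran from -0.20 to 0.05 and from -0.18 to 0.45. The part of this mixture in the differences of other genes was not tested.

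Glial and vascular lists depended on single libraries. Medians with all libraries were -0.01 for 16 astrocyte, 0.04 for 16 oligodendrocyte, 0.22 for 12 oligodendrocyte precursor and -0.11 for 16 microglia markers. Without non-defeated replicate 4 they were -0.21, -0.10, 0.04 and -0.28, and without resilient replicate 4 that of microglia was 0.02. Gfap, the intermediate filament of astrocytes, stood at 90.05, 110.3, 68.2 and 52.3 CPM in resilient and 104, 341, 121 and 104 CPM in non-defeated libraries (-0.91 ± 0.33), where non-defeated replicate 2 was far above the rest. Fgfr3 was at -0.62 ± 0.23, Slc4a4 at 0.60 ± 0.28 and the tight-junction gene of myelin Cldn11 at -0.73 ± 0.21. Olig2, a factor of the oligodendrocyte lineage, was at 2.19 ± 0.77 and at -0.50 with the title letter as a term. The microglial genes Cx3cr1 and Siglech were at -0.90 ± 0.33 and -0.82 ± 0.33. Endothelial and mural markers, 17 tested, had a median of 0.38, which was -0.30 without resilient replicate 4; they summed to 123 to 769.7 CPM in resilient and 119.7 to 163 CPM in non-defeated libraries, the highest being resilient replicate 4, which also led in Itm2a (0.91 ± 0.43). Choroid plexus, leptomeningeal and ependymal markers had medians of -0.20, -0.08 and -0.41, with 0 members at an unadjusted p under 0.05; with 1 library left out those of choroid plexus ran from -0.46 to 0.15, those of leptomeningeal markers from -0.26 to 0.10 and those of ependymal markers from -0.60 to -0.15.

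Convertase and extracellular matrix genes, the subject of the series, showed no difference that passed by limma-trend, DESeq2 or voom in the lists tested. Pcsk5, a convertase that trims precursor proteins, stood at 14.5, 13.2, 4.51 and 7.12 CPM in resilient and 8.60, 5.17, 5.12 and 5.55 CPM in non-defeated libraries, against 10.99, 20.997, 19.6 and 27.3 CPM in susceptible ones. The log2 fold change was 0.51 ± 0.38 from non-defeated and -0.99 ± 0.38 from susceptible mice. Pcsk4 was the 1 convertase of 9 with an unadjusted p under 0.05 (11.1% higher, beside 4.27% of all genes), at 0.92 ± 0.41. Furin, a related convertase, was at -0.74 ± 0.42, the matrix metalloproteinases Mmp14 and Mmp2 at 0.71 ± 0.44 and -0.04 ± 0.70. Acan, of the proteoglycan aggrecan, had 13, 18, 0 and 10 reads in resilient, 2, 140, 69 and 155 in susceptible and 0 in each of the non-defeated libraries, at least 14.6-fold higher against 3 reads pooled over the non-defeated group. Medians were 0.08 over 9 convertases, 0.17 over 23 metalloproteinases and inhibitors, 0.11 over 20 perineuronal net genes and 0.11 over 28 collagens and laminins. The collagen and laminin median was -0.14 without resilient replicate 4 and -0.31 without the 3 libraries, and that of metalloproteinases and inhibitors was -0.25 without the 3 libraries. With the title letter as a term the medians of convertases, metalloproteinases and perineuronal net genes were -0.06, -0.02 and -0.19. Timp2, a metalloproteinase inhibitor, stood at 679.5, 707, 632 and 412 CPM in resilient and 416, 321, 454 and 113 CPM in non-defeated libraries (1.04 ± 0.43), and Cspg5, a brain proteoglycan, was at 1.18 ± 0.50; with the title letter as a term they were at -0.33 and -0.53. The laminin chain Lamc1 stood at 4.92, 6.87, 6.76 and 24.5 CPM in resilient and 3.87, 4.0025, 0.0410 and 2.56 CPM in non-defeated libraries (1.67 ± 0.58). The groups did not overlap, resilient replicate 4 lay far above the other 3, and the log2 fold change was 1.20 without that library and 0.53 without the 3 libraries. Lamb1, another laminin chain, was at 1.29 ± 0.51 without overlap, and at 1.16 without the 3 libraries.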

How the data were processed

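RNA from punched lateral habenula was sequenced in 12 libraries, 4 per group. The values are CPM that the authors deposited with a constant added; per the submitters' processing notes featureCounts, edgeR and GRCm38 (mm10) were used, while the aligner, tool versions and strand setting are not stated in those notes. The constant was subtracted, and each value divided by the CPM of 1 read; all of them (100%) then lay within 0.001 of an integer, which gives the reads. The interaction ratio was deposited by the authors. The deposited log2 and log ratio columns, likelihood ratio score, p-value, FDR and correlation columns were not used.

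CPM were scaled with TMM (edgeR 4.0.16) and tested as log2(CPM + 1) with robust limma-trend (limma 3.58.1, R 4.3.3) over all 12 libraries, keeping 17111 genes with a minimum count of 10 (305 left out) and Benjamini-Hochberg adjusted p under 0.05. This CPM test, edgeR's quasi-likelihood test, DESeq2 1.42.0 and voom on reads, other scalings, pseudocounts, filters, a title letter term, a replicate block and leaving out each library were compared. Tests were checked on simulated data. Library totals of 33302292 to 47737054 reads set the counting error; floors of 3 reads cover counting error only.

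Named genes were the up to 30 of smallest p, the 8 largest fold changes each way among genes averaging at least 5 CPM, up to 3 per list for 55 lists, all mitochondrial genes, and Pcsk5, Furin, Mmp2, Mmp14 and Acan; a few genes that these rules select are not reported here and were not replaced. The comparison and the lists were chosen with earlier results of these data known. Of 17416 genes 17402 matched GENCODE M21 by identifier.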

Additional observations from a re-analysis of the deposited data

Results flagged for a closer look

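In 32 of 276 groups of 4 libraries, 1 library stood far from the other 3 by Dixon's test, which by chance picks out about 1 in 20 groups. The test looks at 1 named gene, or the interaction ratio, in 1 group at a time. In resilient replicate 4 the value that stood apart was 15.6 CPM for Abcc4, 2.76 CPM for Ano8, 1522 CPM for CT010467.1, 17.2 CPM for Kdm1a, 24.5 CPM for Lamc1, 83.3 CPM for Rian, 121 CPM for Prkaca, 161 CPM for Eif4a1, 163 CPM for Srebf2, 90.8 CPM for Lrpprc, 57.2 CPM for Dlg4, 28.3 CPM for Shank2 and 131 CPM for Itm2a. In non-defeated replicate 1 the value that stood apart was 1.99 CPM for Abcc4, 1.73 CPM for Adra2c, 8.34 CPM for Hcn4 and 8.6 CPM for Pcsk5. In resilient replicate 3 the value that stood apart was 446 CPM for Gm13340, 39.96 CPM for Rpl27a, 24.8 CPM for Gabra3 and 132 CPM for Slc4a4. In non-defeated replicate 3 the value that stood apart was 6412 CPM for mt-Cytb, 229 CPM for Pdha1 and 138 CPM for Srebf2. In non-defeated replicate 2 the value that stood apart was 20.2 CPM for Kat6a, 341 CPM for Gfap and 177 CPM for Dlat. In non-defeated replicate 4 the value that stood apart was 0.0507 CPM for Dlx2 and 99.9 CPM for Cox7c. In resilient replicate 2 it was 0.39 CPM for Nfatc2ip. In resilient replicate 1 it was 84.2 CPM for Fgfr3. The interaction ratio of resilient replicate 4 was 2.24, far above those of the other 3 resilient mice.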

How the results depend on the processing

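The mitochondrial share kept its sign in every alternative run: the difference of -4.70 percentage points ranged from -5.53 to -4.23 when 1 library was left out. The number of genes passing between resilient and non-defeated mice, 1, was 2 with library totals only, with DESeq2 size factors, with no filter, with a mean of at least 1 CPM and with TMM scaling before the filter. It was 0 by limma without robust estimation, with only the 2 groups compared, with the title letter as a term and without resilient replicate 4 and non-defeated replicates 3 and 4, and 0 by edgeR, where 625 genes were higher and 418 lower at an unadjusted p under 0.05. DESeq2 gave 91 and voom 11, and leaving out 1 library gave 0 to 9. At an unadjusted p under 0.05 the 731 higher genes became 376 with the letter as a term and 1116 by voom, and 526 to 983 with 1 library left out. The 491 lower genes became 293 with the letter, 889 by voom, 1013 without the 3 libraries, and 389 to 914 with 1 left out, the most without resilient replicate 4. Against susceptible mice the 8 genes became 1 with a pseudocount of 0.25, 0 with a pseudocount of 4, 0 without robust estimation, 0 with only the 2 groups, 0 by edgeR, 38 by DESeq2, 16 by voom, 2 without the 3 libraries, and 0 to 10 with 1 left out. The cause of these shifts was not tested.

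The replicate number as a block gave 0 genes in both comparisons, with 776 higher and 488 lower than non-defeated at an unadjusted p under 0.05. Deviations of same-numbered libraries correlated between -0.194 and 0.127 over 12 pairs, and 3 of 12 libraries correlated best with their own number, so the numbers were not taken to pair the libraries.

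Of 3802 alternative values of 136 named genes, 3702 kept direction and side of the threshold, 13 lost the threshold, 58 gained it and 29 changed sign, 22 of them with the title letter as a term. With that term the log2 fold changes were 2510039O18Rik -0.27, Gclc -0.31, Syn2 -0.18, Ano8 -0.53, Klf9 -0.20, Kdm1a -0.40, Arf6 -0.38, Olig2 -0.50, Prkaca -0.79, Gclm -0.37, Nefh -0.27, Plekha3 -0.35, Hcn2 -1.09, Vgf 0.0236, Gabra3 0.0675, Timp2 -0.33, Ppargc1a -0.0787, Cspg5 -0.53, Jund -0.65, Grik5 -0.28, Pcsk5 -0.0589 and Acan -0.41. Without the 3 libraries Tomm22 was at 0.0236 and Mmp14 at -0.11. Mmp2 was at 0.24 with a pseudocount of 0.25, and at 0.12, 0.06, 0.09 and 0.48 without resilient replicate 1 or 2 or non-defeated replicate 1 or 2. Of 1540 alternative list medians 50 moved by more than the spread between replicates. With 4 libraries a group, small differences were not detectable. The fit without the 3 libraries and TMM before the filter were chosen after seeing the data.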
